A study of Mus musculus with 8 samples.

Results

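The genes described here are 47 mouse genes, most of which encode receptor tyrosine kinase ligands, their receptors and their binding proteins outside the ErbB family. The intracellular factors *Fgf12* and *Fgf13* and the adaptors *Irs1* and *Irs2* are counted among them. The 47 genes were chosen by function and matched by symbol to the Ensembl identifiers of the gene table, and all 47 were found among its 53465 identifiers. They comprise fibroblast growth factors (FGFs) and their receptors, the insulin-like growth factor (IGF) axis, the vascular endothelial (VEGF) and platelet-derived (PDGF) growth factors, the angiopoietins, hepatocyte growth factor, neurotrophins, and the ligand and receptor genes around AXL, KIT, CSF1 and midkine. Poly(A) RNA was sequenced from heart ventricles of E15.5 mouse embryos, with 4 libraries per genotype and 8 in all. The gain-of-function group, called Nrg1GOF here, carries a Rosa26 allele for neuregulin-1 together with a Cre driver, which the labels spell Rosa26Nrg-1;Nkx5.5-Cre and the study spells with Nkx2.5Cre. Nkx2.5Cre acts in cardiac progenitors and the cells that descend from them, so the allele can be recombined in more than one cardiac cell type. The control group is wild type (WT) with no allele listed. Any effect of the Cre driver itself and that of neuregulin-1 therefore cannot be told apart here. Sex, strain and litter were not given in the sources used here, and nothing states that the 4 samples of a group came from separate litters, so p values measure the spread between these samples. The question is whether growth factor genes differ in level between ventricles with neuregulin-1 gain of function and WT ventricles.

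Receptor tyrosine kinases are membrane receptors that pair up when a secreted ligand binds and then pass the signal on through adaptor proteins to the RAS, PI3-kinase and phospholipase pathways. In the embryonic heart, FGFs and IGFs from the epicardium and endocardium are known to promote growth of the compact myocardium, VEGFs and angiopoietins guide the coronary and endocardial endothelium, and PDGFs act on epicardium-derived mesenchyme and mural cells. Binding proteins, inhibitory receptors and proteases set how much free ligand reaches a receptor.

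The libraries held between 8038641 and 26786039 assigned reads, with Nrg1GOF replicate 4 the smallest and the other 7 at 18754259 or more. A count of 3 reads, taken as the detection floor, corresponded to 0.112 to 0.373 CPM, which are reads scaled to the size of the library, and this floor covers counting error only. Library sizes were adjusted by the TMM method, a trimmed mean of log ratios between libraries. *Nrg1* itself stood at 4.17, 4.42, 3.07 and 4.47 CPM in WT replicates 1 to 4 and at 60.7, 59.7, 63.7 and 63.1 CPM in Nrg1GOF replicates 1 to 4, so every library matched its label. WT replicates 1 and 2 resembled each other more than they did WT replicates 3 and 4. Across the tested genes the Pearson correlation of log2 CPM was 0.989 and 0.991 within these pairs and 0.980 between them, which is a description over genes of the same libraries. No label names a batch for this split, and values against each pair are given where they changed the call of a gene described below. Transcripts of red blood cells followed the split, with a sum of 9 markers at 13059 and 12214 CPM in WT replicates 1 and 2, 5518 and 4430 CPM in WT replicates 3 and 4, and 5449 to 8917 CPM in Nrg1GOF. The summed levels of 13 of 14 marker lists kept the WT pairs apart, but only those of red blood cells (2.54-fold) and of valve and outflow mesenchyme (1.51-fold) differed by more than 1.5-fold. The valve and outflow sums were 86.1 and 91.4 CPM in WT replicates 1 and 2 against 54.7 and 62.9 CPM in replicates 3 and 4, and the fibroblast sums were 5501 and 5481 against 4022 and 4051 CPM. Of 10 cardiomyocyte markers 5 fell and none rose, and the 10 genes summed to 46001 to 47193 CPM in WT against 36266 to 43693 CPM in Nrg1GOF.

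Markers of other cell types also moved with genotype. All 9 fibroblast markers rose, and their sum was 4022 to 5501 CPM in WT and 7482 to 9610 CPM in Nrg1GOF. All 9 macrophage markers rose as well, from a sum of 48.4 to 57.3 CPM in WT to 104 to 118 CPM in Nrg1GOF. Of 7 markers of valve and outflow mesenchyme 6 rose, summing to 54.7 to 91.4 CPM in WT against 122 to 191 CPM in Nrg1GOF. Epicardial markers gave 6 rises and 1 fall among 9 genes, with sums of 199 to 235 and 287 to 319 CPM. Among 12 markers of endothelium and endocardium 6 rose and none fell, with sums of 1377 to 1421 and 1534 to 1656 CPM. Atrial markers gave 6 rises among 10, with sums of 2521 to 2857 and 3463 to 3748 CPM. Mural cell markers gave 2 rises and 3 falls among 8, summing to 1621 to 1867 CPM in WT against 1277 to 1364 CPM in Nrg1GOF. Of the smaller lists, lymphatic endothelium had 1 rise and 1 fall among 5, mast cells 2 rises among 4 tested and neural cells 2 rises among 5 tested, and the 6 megakaryocyte and 9 red blood cell markers gave no call. The tests behind these counts are those of all genes described next. The list for lung, liver and skeletal muscle had 1 tested gene of 9, *Myog* of skeletal muscle, at 0.606 CPM in WT and 0.636 in Nrg1GOF on 6 to 22 reads per library and without a call. *Nkx2-1* of lung averaged 0.231 and 0.184 CPM, *Sftpc* and *Myod1* had no read in any library, and the 9 genes summed to 0.927 to 1.68 CPM in WT and 0.385 to 1.48 in Nrg1GOF. In bulk ventricles, more cells of a type and more RNA per cell cannot be told apart, and the part of these shifts in the growth factor results was not tested.

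Of the 47 growth factor genes 46 passed the filter on low counts, and 22 of those 46 (47.8%) differed between genotypes at an adjusted p under 0.05 (edgeR quasi-likelihood test, adjusted over all 15580 tested genes). Across all tested genes 28.7% were called. The 22 comprised 18 genes that rose in Nrg1GOF and 4 that fell, where 15.9% of all genes rose and 12.8% fell. The 18 that rose were *Fgf12*, *Fgfr1*, *Fgfr2*, *Fgfr3*, *Igf1*, *Igfbp3*, *Igfbp4*, *Igfbp5*, *Igfbp7*, *Pdgfc*, *Angpt1*, *Hgf*, *Ntf3*, *Axl*, *Kit*, *Csf1*, *Mdk* and *Ptn*, and the 4 that fell were *Fgf16*, *Fgf13*, *Insr* and *Vegfb*. The 4 libraries of one genotype did not overlap those of the other in 21 of the 46 tested genes (45.7%), against 30.7% of all tested genes, and these 21 were the called genes other than *Vegfb*. A log2 change of at least 0.5 in size accompanied the call in 17 of the 46 (12.9% of all genes), and one of at least 1 in 5 of them (4.65% of all genes). The median log2 fold change was 0.30 over the 46 genes and -0.01 over all tested genes, and the median size was 0.44 against 0.20. Scaling to library totals in place of TMM shifted the median of all genes to 0.03 and turned the split of all calls from 2474 higher and 1993 lower into 2874 and 1521. Under that scaling the growth factor genes gave 19 rises and 4 falls.

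**Figure D1:**
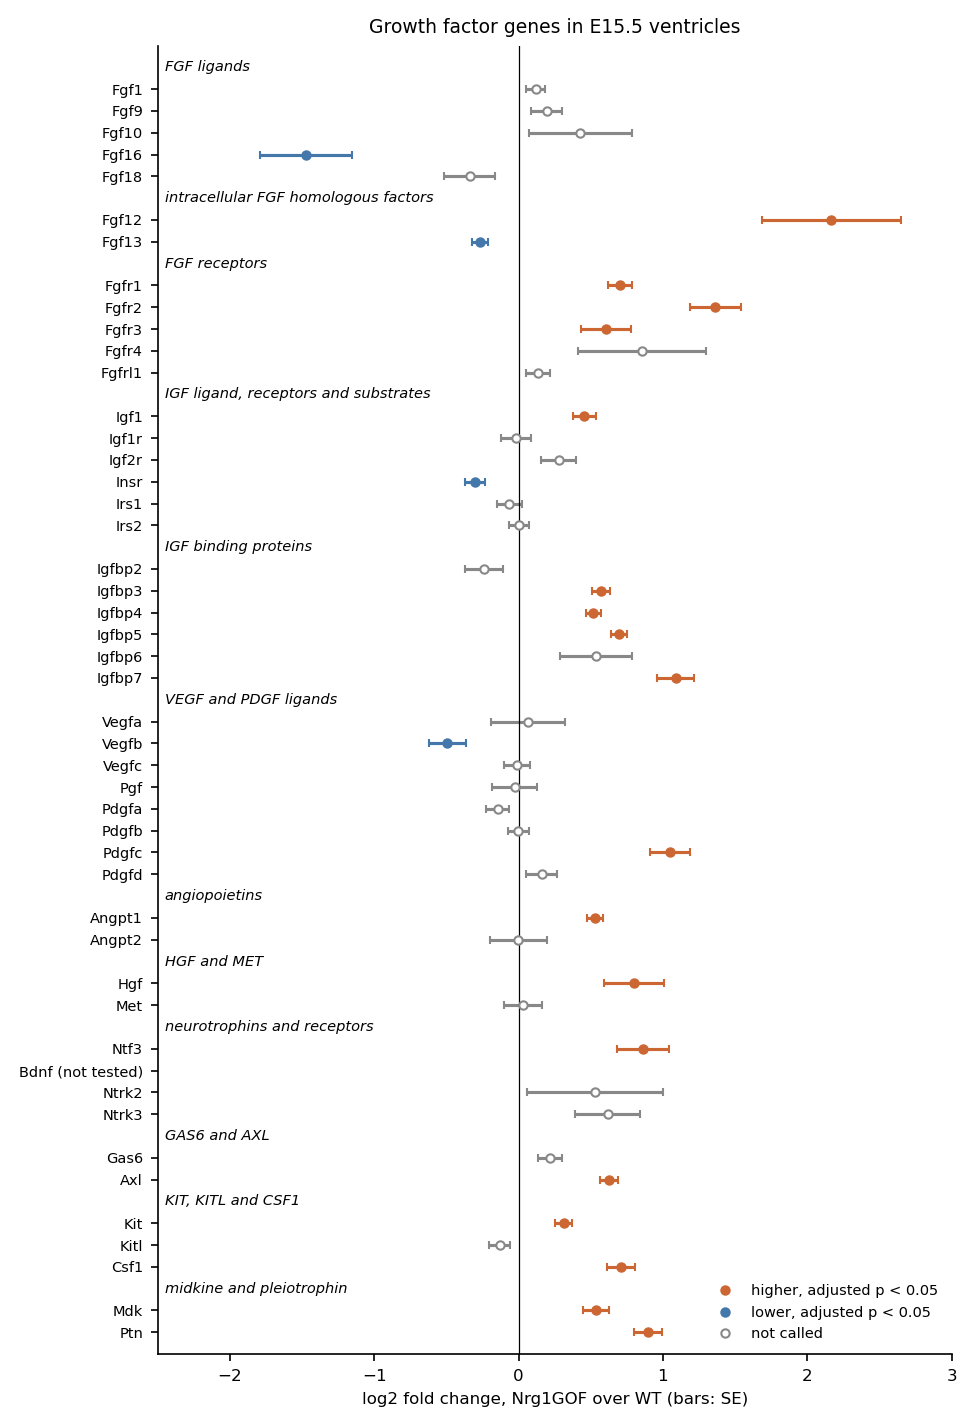
Log2 fold change of Nrg1GOF over WT for each growth factor gene (horizontal axis, log2 scale), grouped by role, with bars for the standard error from 4 libraries per genotype. Filled points mark the 18 genes that rose and the 4 that fell at an adjusted p under 0.05, open points mark the 24 without a call, and *Bdnf* was below the count filter. The rises run from *Kit* at 0.31 to *Fgf12* at 2.17.

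Of the 6 IGF binding proteins 4 rose (66.7%, beside 15.9% of all genes): *Igfbp3*, *Igfbp4*, *Igfbp5* and *Igfbp7* were higher in all 4 Nrg1GOF libraries than in any WT library, while *Igfbp2* and *Igfbp6* were not called. IGFBP-2 to IGFBP-6 bind IGFs with high affinity and limit or prolong their access to the receptor, and IGFBP-7 is a relative with low affinity for IGFs. The sequences before their transcription starts are shown because these 4 genes moved together at separate loci, on chromosome 1 for *Igfbp5*, chromosome 5 for *Igfbp7* and chromosome 11 for *Igfbp3* and *Igfbp4*. Each is the 180 bases before the RefSeq start (GRCm38.p6), read 5′ to 3′ on the strand of the gene. Capitals mark matches on either strand to 6 motifs. These are TGANTCA for AP-1, CCGGAA for ETS factors, CACGTG for the E-box and ACGTG for the core of the hypoxia response element. The TATA box was searched as TATAAA and, separately, as the letters TATATA.
*Igfbp3*, chr11:7213924-7214103, minus strand: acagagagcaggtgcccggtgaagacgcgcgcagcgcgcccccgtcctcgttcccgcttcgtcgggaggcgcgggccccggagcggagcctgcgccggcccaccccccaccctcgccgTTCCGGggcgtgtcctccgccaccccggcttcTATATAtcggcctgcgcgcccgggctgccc
*Igfbp4*, chr11:99041064-99041243, plus strand: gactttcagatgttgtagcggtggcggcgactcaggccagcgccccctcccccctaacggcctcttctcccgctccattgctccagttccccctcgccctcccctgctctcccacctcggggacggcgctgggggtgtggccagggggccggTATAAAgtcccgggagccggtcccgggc
*Igfbp5*, chr1:72874866-72875045, minus strand: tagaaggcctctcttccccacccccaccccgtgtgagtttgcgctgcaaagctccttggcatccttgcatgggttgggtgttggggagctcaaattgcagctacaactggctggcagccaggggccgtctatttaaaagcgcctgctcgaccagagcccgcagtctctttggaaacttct
*Igfbp7*, chr5:77408046-77408225, minus strand: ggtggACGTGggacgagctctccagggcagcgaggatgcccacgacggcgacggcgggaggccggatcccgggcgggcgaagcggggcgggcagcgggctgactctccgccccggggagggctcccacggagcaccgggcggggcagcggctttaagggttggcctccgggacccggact

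The stretches differed in which of these letters they held. The *Igfbp3* stretch had an ETS match and TATATA, the *Igfbp4* stretch had TATAAA beginning 28 bases before the start, the *Igfbp7* stretch had ACGTG and the *Igfbp5* stretch had none of the 6. The GC content of the 250 bases upstream was 73.2% for *Igfbp3*, 69.2% for *Igfbp4*, 58.8% for *Igfbp5* and 74.0% for *Igfbp7*, against a median of 52.4% over 32851 RefSeq windows of this length. RefSeq windows of 300 bases (250 before and 50 after a start) were at hand for 38 of the 47 growth factor genes, 58 windows in all. The AP-1 letters stood in 10.3% of the 58 and in 7.81% of all windows, the ETS letters in 10.3% and 14.9%, the E-box in 13.8% and 7.15%, and ACGTG, which every E-box contains, in 24.1% and 19.6%. TATAAA stood in 8.62% of the 58 and in 13.6% of all windows, and TATATA in 1.72% and 5.67%. Windows of the genes that rose numbered 22, of which 2 held the AP-1 letters, 2 the ETS letters, 2 the E-box and 3 ACGTG. Of the 24 windows of genes without a call, 2 held the AP-1 letters, 4 the ETS letters, 6 the E-box and 9 ACGTG. A match is a description of letters and not of a bound site.

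*Igfbp5* (ENSMUSG00000026185; GRCm38 chr1:72857932-72874884) was by far the most abundant of the 6 binding protein genes. Its WT libraries read 653, 647, 640 and 588 CPM and its Nrg1GOF libraries 1073, 1022, 1004 and 999.8 CPM. The log2 fold change was 0.70 ± 0.05 (SE, n = 4 per genotype; adjusted p = 3.2e-05), a 1.62-fold rise with no overlap. *Igfbp4* (chr11:99041244-99054392) went from 252, 244, 239 and 235 CPM in WT to 326, 357, 345 and 361 CPM in Nrg1GOF, a log2 change of 0.52 ± 0.05 (adjusted p = 0.00011). *Igfbp3* (chr11:7206086-7213923), the main carrier of IGFs in serum, went from 83.0, 76.8, 87.0 and 85.5 CPM to 117, 117, 126 and 134 CPM, a log2 change of 0.57 ± 0.06 (adjusted p = 0.00019). The rise was largest for *Igfbp7* (chr5:77349240-77408041), from 17.6, 19.7, 13.7 and 16.3 CPM in WT to 29.1, 39.7, 39.8 and 34.1 CPM in Nrg1GOF. Its log2 change was 1.09 ± 0.13 (adjusted p = 0.00028), or 2.13-fold. Exons of *Igfbp7* overlap those of *Polr2b* on the opposite strand, and *Polr2b* was not called (log2 change -0.10). *Igfbp2* averaged 12.8 CPM in WT against 11 CPM in Nrg1GOF (log2 change -0.24, adjusted p = 0.215). *Igfbp6* stood at 1.97 and 2.87 CPM (log2 change 0.54, adjusted p = 0.138) and split between the WT pairs, with 2.45 and 2.56 CPM in replicates 1 and 2 and 1.5 and 1.39 CPM in replicates 3 and 4. Against WT replicates 3 and 4 alone *Igfbp6* was called higher (0.99, adjusted p = 0.0175).

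Per kilobase of exonic length, which allows levels to be compared between genes, the 6 binding proteins summed to 209 ± 7.35 CPM per kb in WT and 327 ± 4.37 CPM per kb in Nrg1GOF (mean ± SD, n = 4). *Igfbp5* made up 50.2% of that sum in WT and 52.2% in Nrg1GOF, *Igfbp4* 26.2% and 24.1%, *Igfbp3* 12.7% and 12.1%, and *Igfbp7* 6.65% and 9.02%. The order *Igfbp5*, *Igfbp4*, *Igfbp3*, *Igfbp7*, *Igfbp2*, *Igfbp6* was the same in both genotypes. The fibroblast and mesenchyme marker sums above rose in the same libraries, and their part in the IGF binding protein values was not tested.

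**Figure D2:**
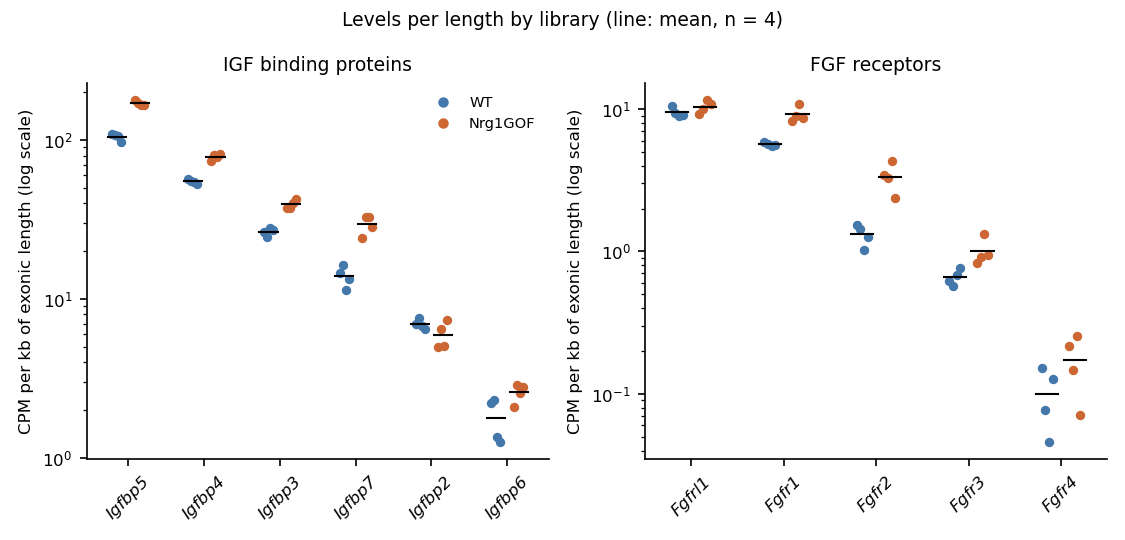
Level per kilobase of exonic length in each library (vertical axis, CPM per kb, log scale) for the IGF binding proteins (left) and the FGF receptors (right), with blue points for WT, orange points for Nrg1GOF and a line at the mean of 4. *Igfbp5* lies highest in its family at 105 CPM per kb in WT and 171 CPM per kb in Nrg1GOF, and *Fgfr2* moves from 1.32 to 3.35 CPM per kb.

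Among the IGF ligand, receptors and substrates, the ligand rose and the insulin receptor fell. *Igf1*, which encodes the growth factor itself, read 62.9, 65.6, 54.6 and 58.4 CPM in WT and 83.9, 78.1, 93.2 and 75.1 CPM in Nrg1GOF, a log2 change of 0.46 ± 0.08 (adjusted p = 0.00254) without overlap. *Insr*, the insulin receptor, read 164, 177, 158 and 152 CPM in WT and 137, 127, 120 and 144 CPM in Nrg1GOF and fell by 0.30 on the log2 scale (SE 0.07, adjusted p = 0.0106). The fall of *Insr* was 0.23 against WT replicates 3 and 4 alone (adjusted p = 0.0687), past the threshold no longer. *Igf1r*, the signalling receptor for both IGFs, was 158 ± 24.7 CPM in WT and 156 ± 10.8 CPM in Nrg1GOF and was not called. The adaptors *Irs1* (119 and 114 CPM) and *Irs2* (31.8 and 32.1 CPM), which couple these receptors to PI3-kinase, were not called either.

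*Igf2r*, which takes up IGF2 for degradation and does not signal growth, had the highest level per length of all 47 genes in both genotypes, at 238 CPM per kb in WT and 289 CPM per kb in Nrg1GOF. It read 2415, 2612, 1958 and 1877 CPM in WT and 3095, 2565, 2339 and 2751 CPM in Nrg1GOF, and the groups overlapped (log2 change 0.28, adjusted p = 0.116). It was called without WT replicate 2 (0.37, adjusted p = 0.0484) and against WT replicates 3 and 4 alone (0.49, adjusted p = 0.0106). *Igf2*, the main fetal IGF, is no member of the 47 and was named after its values were seen. It averaged 4606 ± 145 CPM in WT against 4712 ± 165 CPM in Nrg1GOF (log2 change 0.03, adjusted p = 0.690).

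Other genes of the insulin and IGF axis were read from a list of 18, of which 12 were tested, 6 rose and 3 fell (75.0% called, beside 28.7% of all genes). This list and the further lists below were chosen with earlier results of these data known, as were the 47 genes. *Pappa* and *Pappa2*, proteases that free IGFs by cutting IGF binding proteins, rose from 2.87 to 9.22 CPM (log2 change 1.68 ± 0.22, adjusted p = 0.000501) and from 1.87 to 4.92 CPM (1.40 ± 0.24, adjusted p = 0.00224). *Htra1*, a secreted serine protease, rose from 24.3 to 46.6 CPM (0.95 ± 0.18, adjusted p = 0.00359). *Stc1* and *Stc2*, stanniocalcins that inhibit the PAPP-A proteases, rose by 0.53 and 0.45 on the log2 scale, and *Igf2bp2*, an RNA-binding protein, rose by 0.21. Against WT replicates 3 and 4 alone the calls of *Stc2* (0.31, adjusted p = 0.114) and *Igf2bp2* (0.20, adjusted p = 0.0527) were lost. With each WT pair summed to 1 sample both calls were lost as well (0.46 and 0.22, adjusted p = 0.0803 and 0.0871). The *Stc2* call was also lost without Nrg1GOF replicate 1 or 2 or WT replicate 1 or 2 (adjusted p from 0.0519 to 0.0734). *Igfbpl1*, an IGF-binding-protein-like secreted protein, fell from 16.0 to 5.88 CPM (log2 change -1.46 ± 0.10, adjusted p = 2.0e-05). *Grb14* and *Grb10*, adaptors that inhibit the insulin and IGF receptors, fell from 82.9 to 56.6 CPM (log2 change -0.55) and from 2022 to 1528 CPM (log2 change -0.40). The groups did not overlap in 8 of the 12 tested genes of the list (66.7%, against 30.7% of all genes), which are the called genes other than *Stc2*.

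Of the 5 FGF receptors 3 rose (60.0%, beside 15.9% of all genes) and none fell. *Fgfr2* (ENSMUSG00000030849), whose splice forms serve epithelium and mesenchyme, had the largest rise among them, from 15.9, 14.8, 10.6 and 13.1 CPM in WT to 35.6, 34.1, 44.5 and 24.4 CPM in Nrg1GOF. Every Nrg1GOF library lay above every WT library, and the log2 change was 1.36 ± 0.18 (adjusted p = 0.00043), or 2.57-fold. The annotated *Fgfr2* gene reaches into *Ctbp2* on the same strand. *Ctbp2*, read for that reason, went the other way, with 65.9 ± 3.32 CPM in WT against 58.3 ± 2.20 CPM in Nrg1GOF (log2 change -0.18, adjusted p = 0.0374), a call that was lost without 6 of the 8 libraries in turn and against either WT pair alone (adjusted p = 0.177 and 0.0525). *Fgfr1* (chr8:25513654-25575718), the receptor of most mesodermal cells, read 57.5, 56.2, 54.1 and 55.5 CPM in WT and 81.9, 88.7, 107 and 85.4 CPM in Nrg1GOF, a log2 change of 0.70 ± 0.08 (adjusted p = 0.00025). *Fgfr3* read 4.47, 4.09, 4.89 and 5.45 CPM in WT and 5.90, 6.57, 9.49 and 6.75 CPM in Nrg1GOF (log2 change 0.61 ± 0.17, adjusted p = 0.0254), with Nrg1GOF replicate 3 the highest. The *Fgfr3* call was lost without Nrg1GOF replicate 3 (0.44, adjusted p = 0.0512) and without WT replicate 1, 2 or 3 in turn (adjusted p = 0.0587, 0.0593 and 0.0508), as well as against WT replicates 3 and 4 alone (0.49, adjusted p = 0.118). It was also lost with each WT pair summed to 1 sample (0.61, adjusted p = 0.108).

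*Fgfr4* rested on 2 to 21 reads per library and was not called, with a mean of 0.355 CPM in WT against 0.611 CPM in Nrg1GOF (log2 change 0.85, adjusted p = 0.185). *Fgfrl1*, a receptor that binds FGFs but lacks the kinase domain, read 26.3 ± 1.88 CPM in WT and 28.9 ± 2.76 CPM in Nrg1GOF and was not called. Summed per length, the 5 FGF receptors came to 17.2 ± 1.02 CPM per kb in WT and 24.1 ± 2.84 CPM per kb in Nrg1GOF. *Fgfrl1* held 55.0% of this sum in WT and 43.2% in Nrg1GOF, *Fgfr1* 32.9% and 38.1%, and *Fgfr2* 7.64% and 13.8%. With the longest transcript in place of the whole exonic length, *Fgfr1* held 41.6% and 44.9% and *Fgfrl1* 42.4% and 31.1%, so the order of these receptors in Nrg1GOF turned with the choice of length.

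**Figure D3:**
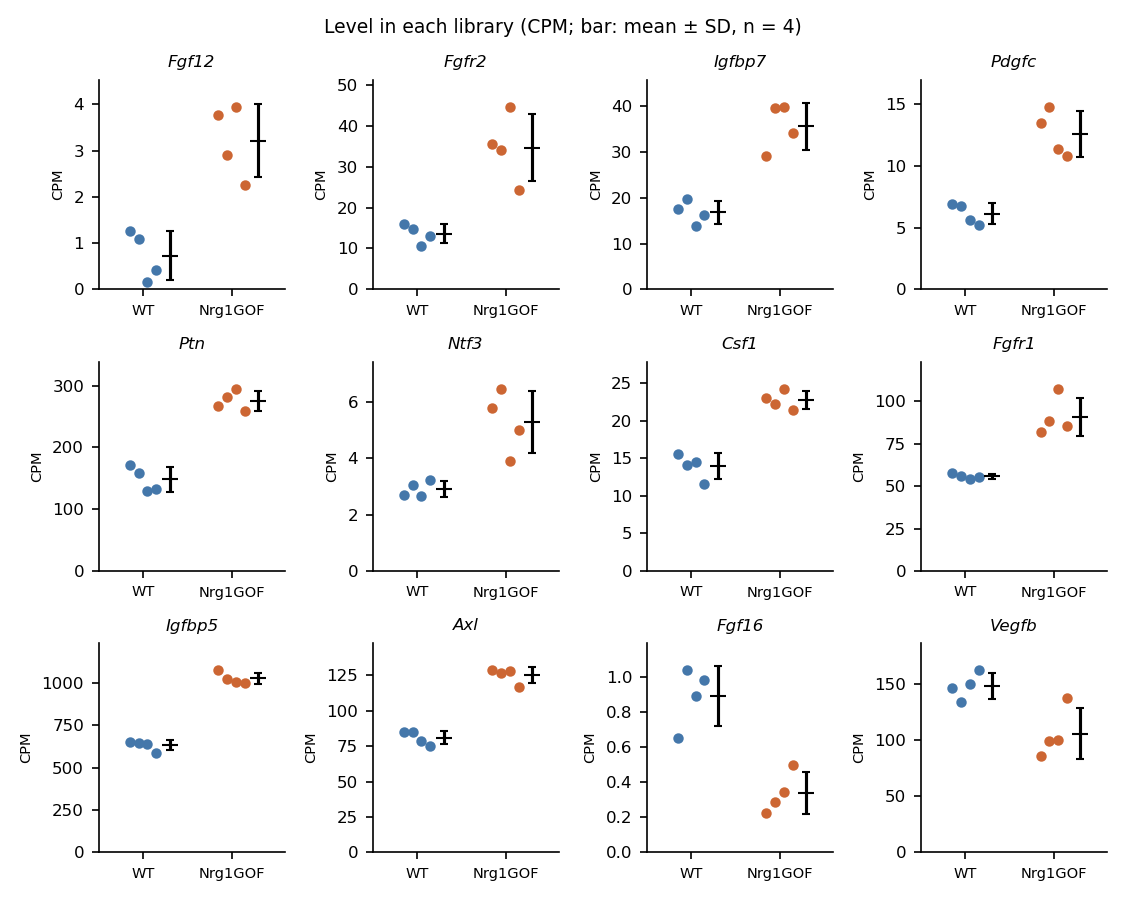
Level in each library (vertical axis, CPM, from 0) for 10 genes that rose and 2 that fell, with blue points for WT replicates 1 to 4, orange points for Nrg1GOF replicates 1 to 4 and a bar for the mean ± SD of 4. The genotypes do not overlap except for *Vegfb*, where Nrg1GOF replicate 4 at 138 CPM lies above WT replicate 2 at 134 CPM.

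Of the 5 secreted FGF ligands 1 fell and none rose (20% called, beside 28.7% of all genes). *Fgf16* (ENSMUSG00000031230; chrX:105764279-105774939), a ligand of the FGF9 subfamily made in embryonic myocardium, read 0.65, 1.04, 0.89 and 0.98 CPM in WT and 0.23, 0.29, 0.34 and 0.50 CPM in Nrg1GOF. These are 4 to 24 reads per library. Its log2 change was -1.47 ± 0.32 (adjusted p = 0.00707) and the groups did not overlap, and against WT replicates 1 and 2 alone the call was lost (log2 change -1.38, adjusted p = 0.0710). *Fgf1*, a ligand that binds every FGF receptor, read 38.6 ± 1.13 CPM in WT and 41.9 ± 3.36 CPM in Nrg1GOF (log2 change 0.12, adjusted p = 0.204). *Fgf9*, an epicardial and endocardial signal to the myocardium, read 8.85 ± 0.295 and 10.03 ± 1.3 CPM (log2 change 0.19, adjusted p = 0.214) and was called without Nrg1GOF replicate 4 (0.28, adjusted p = 0.0446). *Fgf18* read 4.66 and 3.76 CPM (log2 change -0.34, adjusted p = 0.191), and *Fgf10*, an activator of the epithelial form of FGFR2, read 0.668 and 0.851 CPM on 4 to 26 reads per library (log2 change 0.43, adjusted p = 0.416). Per length the 5 ligands summed to 13.6 CPM per kb in WT and 13.4 CPM per kb in Nrg1GOF, and *Fgf1* made up 52.1% and 57.2% of it.

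The FGF homologous factors, which are kept inside the cell and bind voltage-gated sodium channels, went opposite ways. *Fgf12* (ENSMUSG00000022523; chr16:28160098-28753068) had the largest rise of all 46 genes, from 1.26, 1.09, 0.162 and 0.41 CPM in WT to 3.77, 2.90, 3.93 and 2.25 CPM in Nrg1GOF. WT replicate 3 had 4 reads and Nrg1GOF replicate 3 had 92. The log2 change was 2.17 ± 0.48 (adjusted p = 0.00804), or 4.49-fold, and it ranged from 1.46 to 3.5 over the alternatives, the low end being against WT replicates 1 and 2 alone and the high end against WT replicates 3 and 4 alone. *Fgf13* (chrX:59062145-59568071) read 74.4, 74.5, 73.7 and 79.0 CPM in WT and 66.9, 61.5, 58.4 and 64.6 CPM in Nrg1GOF, and fell by 0.26 on the log2 scale (SE 0.06, adjusted p = 0.00637) with no overlap. With each WT pair summed to 1 sample, *Fgf13* missed the threshold (log2 change -0.26, adjusted p = 0.0552). *Fgf13* remained the more abundant of the pair, at 15.6 CPM per kb in Nrg1GOF against 0.518 CPM per kb for *Fgf12*.

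Outside the 47 genes, a list of 22 other FGF family genes had 10 that were tested and 2 that were called (20%, beside 28.7% of all genes). *Fgf2*, a ligand without a secretion signal that is stored in matrix, rose from 7.38, 11.8, 5.99 and 5.86 CPM in WT to 19.7, 16.8, 17.7 and 15 CPM in Nrg1GOF (log2 change 1.18 ± 0.21, adjusted p = 0.00243). *Fgf23*, an endocrine FGF known from bone, went from 0.115, 0.0546, 0.283 and 0.123 CPM to 1.27, 0.667, 1.37 and 1.25 CPM (log2 change 2.88 ± 0.44, adjusted p = 0.0011, and 3.58 against WT replicates 1 and 2 alone), on 1 to 32 reads per library. Its co-receptor *Kl* averaged 0.638 CPM in WT against 0.943 CPM in Nrg1GOF and was not called, except against WT replicates 3 and 4 alone (log2 change 1.68, adjusted p = 0.0326).

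Of the 8 VEGF and PDGF ligands 1 rose and 1 fell (25.0% called, beside 28.7% of all genes). *Pdgfc* (ENSMUSG00000028019; chr3:81036416-81214040), a ligand of PDGF receptor alpha that proteases activate, read 6.88, 6.76, 5.62 and 5.24 CPM in WT and 13.5, 14.7, 11.3 and 10.8 CPM in Nrg1GOF. The log2 change was 1.05 ± 0.14 (adjusted p = 0.0005), or 2.06-fold, without overlap. *Vegfb* (ENSMUSG00000024962; chr19:6982473-6987651), a ligand of FLT1 found mostly in heart and muscle, read 147, 134, 151 and 163 CPM in WT and 86.0, 99.6, 100 and 138 CPM in Nrg1GOF. Nrg1GOF replicate 4 reached into the WT range, and the log2 change was -0.49 ± 0.13 (adjusted p = 0.0171). The *Vegfb* call was lost without Nrg1GOF replicate 2 (log2 change -0.47, adjusted p = 0.0573) and against WT replicates 1 and 2 alone (log2 change -0.42, adjusted p = 0.0932). It was also lost with each WT pair summed to 1 sample (log2 change -0.49, adjusted p = 0.0832). Per length *Vegfb* had the highest mean of this family, with 50.4% of the summed level in WT and 41.0% in Nrg1GOF, although in Nrg1GOF replicate 3 *Vegfa* stood higher (66.8 against 62.5 CPM per kb).

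*Vegfa*, the chief angiogenic VEGF and a target of hypoxia, did not separate the genotypes but did separate the WT libraries. It read 137 and 140 CPM in WT replicates 1 and 2, 272 and 278 CPM in WT replicates 3 and 4, and 180, 211, 286 and 190 CPM in Nrg1GOF (log2 change 0.07 ± 0.26, adjusted p = 0.878). Against WT replicates 1 and 2 alone *Vegfa* was called higher in Nrg1GOF (0.65, adjusted p = 0.0289), and against WT replicates 3 and 4 alone the log2 change was -0.34 and not called. *Vegfc*, the ligand for lymphatic growth, stood at 18.3 ± 1.85 and 18.2 ± 1.23 CPM and *Pgf*, a placental relative, at 5.16 ± 0.51 and 4.98 ± 0.95 CPM. *Pdgfa* read 69.4 ± 6.21 and 63.0 ± 5.09 CPM (log2 change -0.15, adjusted p = 0.205). *Pdgfb* and *Pdgfd*, ligands of PDGF receptor beta, read 36.5 and 36.6 CPM and 8.52 and 9.48 CPM, without a call.

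Several growth factor genes split between the WT pairs, in either direction. In 35 of the 46 tested genes (76.1%) and in *Bdnf*, WT replicates 1 and 2 did not overlap WT replicates 3 and 4, and 61.6% of all tested genes were apart in this way. The pair means differed by more than 1.5-fold in 4 of the 46 (8.70%) and in *Bdnf*, against 13% of all tested genes. These 5 were *Fgf12* (1.18 and 0.286 CPM), *Ntrk2* (2.11 and 0.571 CPM), *Bdnf* (0.333 and 0.123 CPM), *Vegfa* (138 and 275 CPM) and *Igfbp6* (2.5 and 1.44 CPM), and among them *Fgf12* alone was called between genotypes. The summed markers of red blood cells, fibroblasts, valve and outflow mesenchyme and most other lists given above moved with the same split, and their part in it was not tested.

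**Figure D4:**
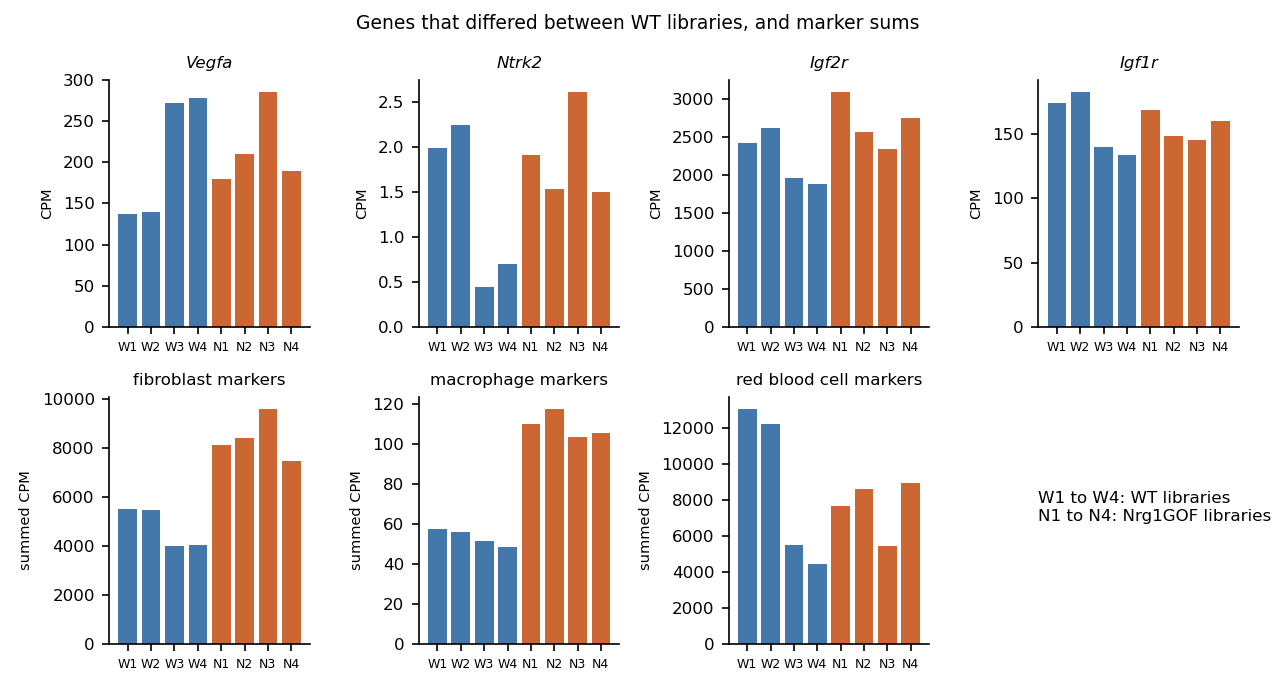
Bars for each library (vertical axis, CPM, from 0) with WT replicates 1 to 4 in blue (W1 to W4) and Nrg1GOF replicates 1 to 4 in orange (N1 to N4). The upper row shows *Vegfa*, *Ntrk2*, *Igf2r* and *Igf1r*, in which W1 and W2 stand apart from W3 and W4, and the lower row shows the summed markers of fibroblasts, macrophages and red blood cells, of which the red blood cell sum is 13059 CPM in W1 and 4430 CPM in W4.

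Of the 2 angiopoietins 1 rose, where 15.9% of all genes did. *Angpt1*, the activating ligand of the endothelial receptor TEK, read 35.5, 36.2, 32.9 and 34.5 CPM in WT and 53.4, 47.8, 50.5 and 49.0 CPM in Nrg1GOF, a log2 change of 0.53 ± 0.06 (adjusted p = 0.00013) without overlap. *Angpt2*, which can block TEK, stood at 2.99 ± 0.535 and 2.95 ± 0.51 CPM and was not called, and the difference between the changes of these genes was not tested. A further list, also chosen with earlier results known, held 18 other receptors and ligands of the VEGF, PDGF and angiopoietin systems. Of its 16 tested genes 10 rose (62.5%, beside 15.9% of all genes) and none fell. *Angptl7*, an angiopoietin-like secreted protein, rose from 2.52 ± 1.68 to 13.5 ± 2.49 CPM (log2 change 2.43 ± 0.43, adjusted p = 0.00236; 1.76 against WT replicates 1 and 2 alone and 3.61 against WT replicates 3 and 4 alone), and *Pdgfrl*, a PDGF-receptor-like protein, from 2.79 to 8.85 CPM (1.68 ± 0.34, adjusted p = 0.0047; 2.31 against WT replicates 3 and 4 alone). *Vegfd*, a second ligand of FLT4, rose from 2.74 to 6.84 CPM (1.34 ± 0.30, adjusted p = 0.00832), with a call that was lost against WT replicates 1 and 2 alone (1.03, adjusted p = 0.0564).

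Hepatocyte growth factor and the neurotrophin NT-3 rose while their receptors were not called. *Hgf*, a mesenchymal ligand, read 1.22, 2.07, 1.94 and 1.48 CPM in WT and 2.81, 2.95, 2.78 and 3.13 CPM in Nrg1GOF (log2 change 0.80 ± 0.21, adjusted p = 0.017), on 25 to 65 reads per library. Its call was lost without WT replicate 4 (0.74, adjusted p = 0.0529) and against WT replicates 1 and 2 alone (0.83, adjusted p = 0.0674). *Met*, the HGF receptor, stood at 10.7 ± 0.88 and 10.8 ± 1.80 CPM. *Ntf3*, which encodes NT-3, read 2.71, 3.05, 2.67 and 3.24 CPM in WT and 5.81, 6.48, 3.89 and 5 CPM in Nrg1GOF, a log2 change of 0.86 ± 0.18 (adjusted p = 0.00618) without overlap. With every library thinned to the smallest total, the calls of *Ntf3* (0.67, adjusted p = 0.0787) and *Hgf* (0.69, adjusted p = 0.196) were lost. *Ntrk3*, the NT-3 receptor TrkC, read 2.27 ± 0.20 CPM in WT and 3.41 ± 1.06 CPM in Nrg1GOF (log2 change 0.62 ± 0.23, adjusted p = 0.0689) and was called without Nrg1GOF replicate 4 (0.75, adjusted p = 0.0240).

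*Bdnf*, the ligand of TrkB, was the single gene of the 47 below the count filter, with 1 to 16 reads per library. It read 0.229, 0.436, 0.0404 and 0.205 CPM in WT and 0.726, 0.762, 0.342 and 0.625 CPM in Nrg1GOF, and WT replicate 2 lay above Nrg1GOF replicate 3. *Ntrk2*, which encodes TrkB, read 1.99, 2.24, 0.445 and 0.697 CPM in WT and 1.91, 1.52, 2.61 and 1.5 CPM in Nrg1GOF (log2 change 0.53 ± 0.47, adjusted p = 0.446). Against WT replicates 3 and 4 alone the log2 change of *Ntrk2* was 1.75 (adjusted p = 0.0104), and against WT replicates 1 and 2 alone it was -0.14.

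*Axl*, a receptor of the TAM family that takes part in clearing dying cells, read 85.1, 85.0, 78.7 and 75.4 CPM in WT and 129, 127, 128 and 117 CPM in Nrg1GOF. The log2 change was 0.63 ± 0.06 (adjusted p = 8.1e-05) without overlap. Its ligand *Gas6* was one of the most abundant of the 47 genes per length (128 and 149 CPM per kb) and read 325 ± 12 CPM in WT and 378 ± 44.7 CPM in Nrg1GOF (log2 change 0.22 ± 0.08, adjusted p = 0.0704). *Gas6* was called without Nrg1GOF replicate 3 (0.29, adjusted p = 0.0145), under scaling to library totals (0.26, adjusted p = 0.0270) and by DESeq2 (0.22, adjusted p = 0.0445).

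*Kit*, a stem cell and mast cell receptor, rose from 29.5 ± 1.04 to 36.7 ± 2.05 CPM (log2 change 0.31 ± 0.06, adjusted p = 0.00334) without overlap, and its ligand *Kitl* stood at 78.3 ± 4.93 and 71.3 ± 6.14 CPM without a call. *Kit* is also 1 of the mast cell markers and 1 of their 2 rises given above. The mast cell sum was 34.9 to 37.8 CPM in WT and 45.2 to 50.8 CPM in Nrg1GOF with *Kit* included, and *Kit* was the larger part of it. *Csf1*, the growth factor of macrophages, read 15.6, 14.1, 14.4 and 11.5 CPM in WT and 23.1, 22.2, 24.2 and 21.4 CPM in Nrg1GOF, a log2 change of 0.71 ± 0.10 (adjusted p = 0.00062) without overlap. Its receptor *Csf1r*, a macrophage marker named after its values were seen, read 17.7 ± 1.49 CPM in WT and 35.6 ± 1.46 CPM in Nrg1GOF (log2 change 1.01 ± 0.07, adjusted p = 2.0e-05). *Csf1r* is 1 of the 9 genes in the macrophage marker sum given above. The part of that marker shift in the value of *Csf1* was not tested.

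Midkine and pleiotrophin, heparin-binding growth factors of a common fold, both rose. *Ptn* (ENSMUSG00000029838; chr6:36714929-36810220) read 172, 159, 130 and 132 CPM in WT and 267, 282, 295 and 258 CPM in Nrg1GOF, a log2 change of 0.90 ± 0.09 (adjusted p = 0.00014), or 1.86-fold. *Mdk* (chr2:91929805-91932297) read 83.2, 83.1, 68.3 and 67.5 CPM in WT and 99.1, 112, 108 and 120 CPM in Nrg1GOF, a log2 change of 0.54 ± 0.09 (adjusted p = 0.0018). No WT library reached the Nrg1GOF range for either gene. Per length *Mdk* and *Ptn* stood at 82.8 and 80.3 CPM per kb in Nrg1GOF, from 57.0 and 43.2 CPM per kb in WT.

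A list of 25 receptors, ligands and co-receptors around HGF, the neurotrophins, AXL, KIT, CSF1 and midkine was also chosen with earlier results known. Of its 19 tested genes 11 rose (57.9%, beside 15.9% of all genes) and none fell. *Sdc4*, a syndecan that carries heparan sulphate, rose most, from 22.9, 19.5, 18.8 and 18.8 CPM in WT to 71.4, 74.7, 59.3 and 73.5 CPM in Nrg1GOF (log2 change 1.80 ± 0.09, adjusted p = 3.3e-06). *Ntf5*, which encodes neurotrophin-4, rose from 0.598 to 1.89 CPM (1.67 ± 0.28, adjusted p = 0.00186), and *Ptprz1*, a receptor phosphatase bound by pleiotrophin and midkine, from 1.78 ± 1.04 to 4.38 ± 0.44 CPM (1.33 ± 0.34, adjusted p = 0.015). The *Ptprz1* call was lost against WT replicates 1 and 2 alone (0.87, adjusted p = 0.0661), and its log2 change was 1.98 against WT replicates 3 and 4 alone. Other genes of the list that rose included *Sdc1*, *Sdc3*, *Lrp1*, *Sort1*, *Ngfr*, *Tyro3* and *Pros1*, of which *Ngfr* is also 1 of the 2 rises among the neural markers above. Among them *Tyro3* (0.40, adjusted p = 0.0524) and *Pros1* (0.25, adjusted p = 0.0776) lost their calls against WT replicates 3 and 4 alone, and *Sdc1* (0.25, adjusted p = 0.0704) against WT replicates 1 and 2 alone. With each WT pair summed to 1 sample *Tyro3* (0.42, adjusted p = 0.0664) and *Pros1* (0.28, adjusted p = 0.0605) lost their calls too. The log2 change of *Lrp1* was 0.90, and 1.54 against WT replicates 3 and 4 alone, and its call was lost without Nrg1GOF replicate 1 or 2 or WT replicate 3 or 4 (adjusted p from 0.0504 to 0.0625), and the *Pros1* call without Nrg1GOF replicate 2 or WT replicate 3 (adjusted p = 0.0623 and 0.0541).

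Read as ligand and receptor pairs, 20 chosen pairs of 20 ligands and 15 receptors gave 6 in which both genes were called. The ligand alone was called in 3, the receptor alone in 8 and neither in 3, of which *Bdnf* with *Ntrk2* had an untested ligand. Both rose in 5 pairs, namely *Pdgfc* with *Pdgfra*, *Angpt1* with *Tek*, *Csf1* with *Csf1r*, and *Ptn* and *Mdk* with *Ptprz1*. In the sixth, *Vegfb* fell and its receptor *Flt1* rose from 85.7 ± 5.23 to 117 ± 6.56 CPM (log2 change 0.44 ± 0.06, adjusted p = 0.0007). The ligand alone was called for *Igf1* with *Igf1r*, *Hgf* with *Met* and *Ntf3* with *Ntrk3*. The receptor alone was called for *Pgf* with *Flt1*, *Vegfc* with *Flt4*, *Pdgfa* with *Pdgfra*, *Pdgfb* and *Pdgfd* with *Pdgfrb*, *Angpt2* with *Tek*, *Gas6* with *Axl* and *Kitl* with *Kit*. Pairs share receptors, so these counts are not of independent items, and 28.7% of all genes were called. The counts also depend on the choice of pairs, which left out the FGF ligands and receptors and set *Igf2* with *Igf2r*, which does not signal growth. *Alk*, of the list around midkine, stood outside the pairs and was not called (log2 change 0.55, adjusted p = 0.195).

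The receptors outside the 47 genes were named after their values were seen. *Pdgfra* rose from 86.9, 82.3, 55.4 and 57.4 CPM in WT to 148, 146, 160 and 124 CPM in Nrg1GOF (log2 change 1.04 ± 0.15, adjusted p = 0.00087), and *Pdgfrb* from 88.2 ± 6.33 to 108 ± 5.46 CPM (0.29 ± 0.06, adjusted p = 0.00743). The *Pdgfrb* call was lost against WT replicates 1 and 2 alone (0.22, adjusted p = 0.0644). *Tek* rose from 108 ± 7.10 to 148 ± 11.7 CPM (0.45 ± 0.07, adjusted p = 0.00143) and *Flt4* from 42.9 ± 1.18 to 52.7 ± 1.71 CPM (0.30 ± 0.05, adjusted p = 0.00156). *Kdr*, the main VEGF-A receptor, averaged 197 ± 8.86 CPM in WT against 191 ± 8.04 CPM in Nrg1GOF and was not called (log2 change -0.04). *Pdgfra*, *Pdgfrb*, *Tek*, *Flt1*, *Kdr* and *Flt4* also belong to the marker lists of fibroblasts, mural cells, endothelium and lymphatic endothelium, so their levels and those of the cell types that carry them cannot be told apart here.

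**Figure D5:**
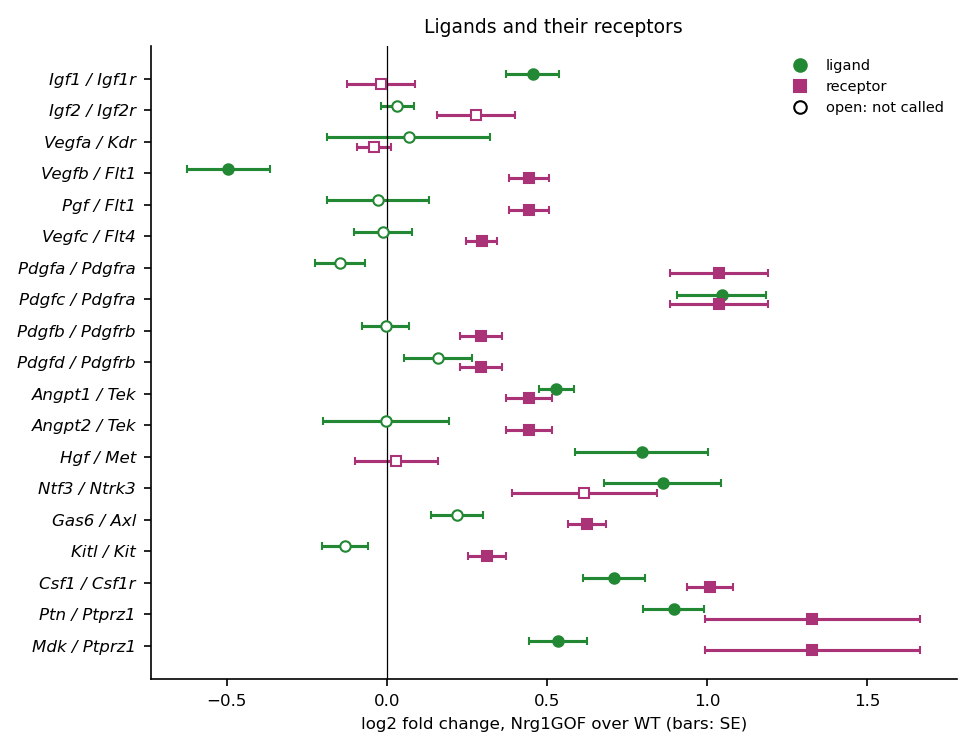
Log2 fold change of Nrg1GOF over WT (horizontal axis, log2 scale) for the ligand (green circle) and the receptor (purple square) of each pair with both genes tested, with bars for the standard error from 4 libraries per genotype and open symbols where a gene was not called. *Pdgfc* and *Pdgfra* lie together near 1, at 1.05 and 1.04, while *Vegfb* at -0.49 and *Flt1* at 0.44 lie on opposite sides of 0.

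The adaptors and effectors next to the receptors changed at about the rate of all genes. Of 29 such genes, all of them tested, 5 rose and 3 fell (27.6% called, beside 28.7% of all genes). *Gab2*, *Shc2* and *Dok5*, docking proteins that link receptors to signalling enzymes, rose by log2 changes of 0.53 ± 0.06 (adjusted p = 0.00013), 0.59 ± 0.14 (adjusted p = 0.01) and 0.89 ± 0.24 (adjusted p = 0.0189). *Shc1*, an adaptor of many receptors, rose by 0.33 on the log2 scale. *Gab1*, a docking protein of the MET and EGF receptors, fell from 185, 183, 184 and 184 CPM in WT to 127, 121, 126 and 125 CPM in Nrg1GOF (log2 change -0.56 ± 0.04, adjusted p = 3.1e-05). *Grb2* and *Sh2b1* fell by 0.14 (adjusted p = 0.0487) and 0.25 (adjusted p = 0.0365) on the log2 scale. The *Grb2* call was lost with any single library left out (adjusted p from 0.0667 to 0.116) and against either WT pair alone (0.0820 and 0.243). The *Sh2b1* call was lost without Nrg1GOF replicate 1, 2 or 4 or WT replicate 3 or 4 (0.0670 to 0.0988), and the *Dok5* call without Nrg1GOF replicate 1 or 2 or WT replicate 3 or 4 (0.0504 to 0.0667). Against WT replicates 1 and 2 alone *Shc2* (0.48, adjusted p = 0.0843), *Dok5* (0.71, adjusted p = 0.125) and *Sh2b1* (-0.13, adjusted p = 0.281) lost their calls. With each WT pair summed to 1 sample the calls of *Grb2*, *Shc2* and *Sh2b1* were lost (adjusted p = 0.228, 0.0603 and 0.127).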

How the data were processed

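Poly(A) RNA of 8 ventricle samples was sequenced as single reads of 60 bases from directional libraries made with 100 ng of RNA. The authors deposited estimated counts per gene from RSEM (1.3.1, with cutadapt trimming, per the submitters' processing notes) on GRCm38 with Ensembl annotation. The aligner and the strand setting were not given in the sources used here. RSEM divides reads that fit several genes by estimated abundance, and between 8.42% and 13.2% of values per library were not whole. Overlapping genes and near copies can therefore trade reads.

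Counts were rounded and genes kept by filterByExpr of edgeR (4.0.16, R 4.3.3). After TMM scaling, genotype was the single term of a quasi-likelihood F-test, which is two-sided. P values were adjusted by Benjamini-Hochberg over all tested genes, with calls at an adjusted p under 0.05. Standard errors (SE) were taken as the size of each log2 change over the root of its F statistic. Symbols were matched for 53274 of 53465 identifiers, and loci and exonic lengths come from GENCODE M21 on GRCm38, a later release than the one counted against. Promoter windows come from RefSeq (GRCm38.p6), and the TATA motifs were added after values were seen. The procedure was also run on simulated counts drawn independently for each library. That setting lacks the split between the WT pairs, and no conclusion is drawn from it here.

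The growth factor genes and the lists were chosen with earlier results of these data known. All 47 genes are accounted for. Full values are given for called genes with a log2 change of at least 0.5 in size, and from each further list the 3 largest called rises and falls are named. Any other gene named from a list was picked with its values known. One gene of the adaptor list is counted there and not reported here. The alternatives numbered 24, among them DESeq2 (1.42.0) and limma-voom (limma 3.58.1).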

Additional observations from a re-analysis of the deposited data

Results flagged for a closer look

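In 9 of 180 groups of 4 values, 1 library stood far from the other 3 by Dixon's ratio of gap to range at its 95% critical value, where chance gives about 9. The total of Nrg1GOF replicate 4, 8038641 reads, was far below the 20578081 to 22547833 reads of the other Nrg1GOF libraries. *Axl* in Nrg1GOF replicate 4 stood at 117 CPM, below 127 to 129 CPM in the others and above all WT libraries. *Fgf13* in WT replicate 4 stood at 79.0 CPM, above 73.7 to 74.5 CPM in the other WT libraries. *Fgf23* in Nrg1GOF replicate 2 read 0.667 CPM, against 1.25 to 1.37 CPM. *Vegfd* in Nrg1GOF replicate 3 read 10.7 CPM, against 5.13 to 5.76 CPM. *Gab2* in Nrg1GOF replicate 1 read 52.3 CPM, against 48.2 to 48.5 CPM. *Dok5* in WT replicate 2 read 3.82 CPM, against 2.17 to 2.43 CPM, which placed it above Nrg1GOF replicate 4 at 3.63 CPM. *Igf2bp2* in WT replicate 2 read 78.4 CPM, against 81.7 to 82.3 CPM. *Gab1* in WT replicate 2 read 183 CPM, against 184 to 185 CPM.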

How the results depend on the processing

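Of the 22 called growth factor genes 15 were called under all of the alternatives that refit the data, and the other 7 (*Fgf13*, *Fgf16*, *Fgfr3*, *Hgf*, *Insr*, *Ntf3* and *Vegfb*) lost the call at least once. No called growth factor gene turned its direction. Leaving out 1 library at a time gave 21 to 24 calls among the 46 tested (17 to 20 higher, 3 to 4 lower) and 3239 to 4261 calls among all genes. Thinning to the smallest total gave 18. Between genotypes, same-numbered libraries had deviation correlations of 0.129, 0.049, 0.199 and 0.067. Their mean was 0.111, against -0.037 for libraries of different number. Nrg1GOF replicates 3 and 4 correlated best with the WT library of their own number, replicate 1 with WT replicate 2 and replicate 2 with WT replicate 1. Whether the numbers mark a batch shared by both genotypes was not tested. With the replicate block 22 growth factor genes (18 higher, 4 lower) and 4524 genes in all were called, and among the other named genes *Grb2* missed the threshold (adjusted p = 0.0686). *Bdnf*, *Fgf10*, *Fgf12*, *Fgf16* and *Fgfr4* had under 10 reads in some library, and of these *Fgf12* was called also after thinning, where *Fgf16* was below the count filter. *Fgfr3*, *Hgf* and *Ntf3* missed the threshold after thinning.

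Counts moved as follows, and the cause was not tested unless the rule itself is stricter. With each WT pair summed to 1 sample, 2464 genes were called (1548 higher, 916 lower), with 1 fall among the growth factor genes and 4 adaptor calls. With WT replicates 1 and 2 alone there were 1308 falls among all genes, 2 among the growth factor genes and 4 adaptor calls. WT replicates 3 and 4 alone gave 5 calls among the other FGF genes. At an adjusted p under 0.01 there were 2535 calls (1503 higher, 1032 lower), 2 growth factor falls, 7 calls in the HGF and neurotrophin list and 4 among adaptors. A log2 change of at least 1 left 724 genes (582 higher, 142 lower), 5 growth factor genes (4 higher, 1 lower), 3, 4 and 4 in the IGF, VEGF and HGF lists and 0 adaptors, where all 8 called by edgeR were below that size. The other FGF genes gave 1 call with a filter of 1 CPM in 4 libraries and 1 after thinning. Leaving out 1 library gave 5 to 9 adaptor calls. With the longest transcript as length, *Igfbp5* made up 46.0% and 48.4% of its family in WT and Nrg1GOF, *Fgfrl1* 42.4% and 31.1%, and *Fgf1* 56.5% and 61.1%.

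The log2 changes that turned sign belonged to genes without a call. Library totals gave *Igf1r* 0.025, *Vegfc* 0.032, *Pgf* 0.018, *Pdgfb* 0.040, *Angpt2* 0.043 and *Kdr* 0.0031. Thinning gave *Igf1r* 0.010, *Irs2* -0.063, *Vegfc* 0.088 and *Pgf* 0.18. WT replicates 3 and 4 alone gave *Igf1r* 0.19, *Irs1* 0.10, *Vegfa* -0.34, *Vegfc* 0.10, *Angpt2* 0.18 and *Kdr* 0.021, and WT replicates 1 and 2 alone gave *Pdgfb* 0.074, *Met* -0.066 and *Ntrk2* -0.14. Limma-voom gave *Irs2* -0.0071, *Pgf* 0.015 and *Angpt2* 0.024, and the 1 CPM filter gave *Vegfc* 0.0026, *Pdgfb* 0.011 and *Angpt2* 0.013. *Angpt2* was 0.0042 by the likelihood ratio test and 0.0010 by DESeq2, and *Pdgfb* 0.0011 with the replicate block. Leaving out 1 library gave ranges of -0.092 to 0.059 for *Igf1r*, -0.024 to 0.049 for *Irs2*, -0.091 to 0.24 for *Vegfa*, -0.070 to 0.045 for *Vegfc*, -0.11 to 0.084 for *Pgf*, -0.047 to 0.041 for *Pdgfb*, -0.094 to 0.12 for *Angpt2* and -0.050 to 0.14 for *Met*.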

Other observations

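Some well-known ligands were close to absent from these ventricles. *Ins1* and *Fgf4* had no read in any library, which allows up to 0.112 to 0.373 CPM per library by counting error. *Ins2*, which encodes insulin, averaged 0.0205 CPM in WT and 0.0783 CPM in Nrg1GOF, and *Fgf8*, a signal of the early heart fields, 0.153 and 0.213 CPM. *Il34*, the second ligand of the CSF1 receptor, averaged 0.197 CPM in WT and 0.177 CPM in Nrg1GOF, against 13.9 and 22.7 CPM for *Csf1*. All of these were below the count filter and were not tested.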
